A study of Mus musculus with 11 samples.

Results

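Kit, Myb, Cd34, Meis1, Runx1, Erg, Fli1 and Spi1 are 8 genes that mark or regulate blood stem and progenitor cells, and their levels were followed through successive stages of red cell formation in mouse fetal liver. They were found by gene symbol in the platform annotation, and each was read from its probe set with the highest mean log2 signal over all 11 arrays. A probe set is a group of short probes whose signals are read as 1 value. The 8 genes are among 18193 genes measured by at least 1 single-gene probe set, and among 13100 tested after a filter on low signal, which all 8 passed. Their symbols and not their values chose them, so every comparison below is open to test, although they were picked with earlier results of these data known.

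All samples were E14.5 (embryonic day) fetal liver cells of the C57/Bl6 strain, and the labels name no mutation or drug in any group. The freshly isolated cells were stained for Ter119, an antigen of maturing erythroid cells, and for CD71, the transferrin receptor, and were sorted into stages R1 to R5. Maturity increases from R1 to R5 in the cited scheme. R1 and R5 were measured on 2 arrays each, R2 and R3 on 3 each and R4 on 1, all from total RNA of a sorted fraction. Separate litters or sorts are not named for replicate arrays, so a p-value reflects the scatter of these arrays alone, and that scatter may be technical. The gate rests on both antigens alone, so a fraction can hold other liver cells with the same staining, and in bulk RNA fewer cells of a type and less RNA per cell cannot be told apart.

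Blood progenitors depend on a receptor for stem cell factor, Kit, and on a group of transcription factors that keep the progenitor programme on. Myb sustains proliferation of definitive progenitors in the fetal liver, Runx1 is the DNA-binding subunit of core-binding factor, Meis1 is a homeodomain partner of Hox and Pbx proteins, and Erg, Fli1 and Spi1 belong to the ETS family. Spi1 encodes PU.1, which drives myeloid and lymphoid fates and opposes Gata1, the main erythroid factor. Maturing erythroid cells shut off Kit and Myb and turn on Gata1 and Tal1 targets.

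Signals are deposited intensities on a linear scale, whose mean after trimming 2% of probe sets at each end was 500 on every array. The arrays' median signal lay between 53.6 and 120.4. Across genes, which are not independent, replicate arrays had Pearson correlations of 0.85 to 0.95. Tfrc, which encodes CD71, read 5360 to 5730 in R1 and 11700 to 23100 in R2, and from R3 on every array read at least 35400. The mean log2 signal of 10 erythroid markers was 9.38 and 10.57 on the R1 arrays, 10.87 to 12.41 on those of R2, and 14.45 to 15.20 on all later arrays. Changes are log2 differences between stage means with the standard error (SE) of 1 limma fit over all 11 arrays. A gene was called at a Benjamini-Hochberg adjusted p under 0.05 over the 13100 genes.

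Replicate 3 of R2 and replicate 1 of R5 stood apart in these genes. The R2 replicate had the lowest signal of the R2 arrays for 7 of the 8 genes, all but Meis1, against 35.6% of all tested genes. The R5 replicate lay above the other R5 array for all 8, against 62.5% of tested genes, and above every R3 array for all 8, against 45.8%. The other R5 array lay above every R3 array for 4 of the 8, against 36.8% of tested genes. Values without one of these arrays are given where they move a result most. Since both arrays were picked out from these genes' own levels, calls gained by leaving one out support nothing.

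**Figure D1:**
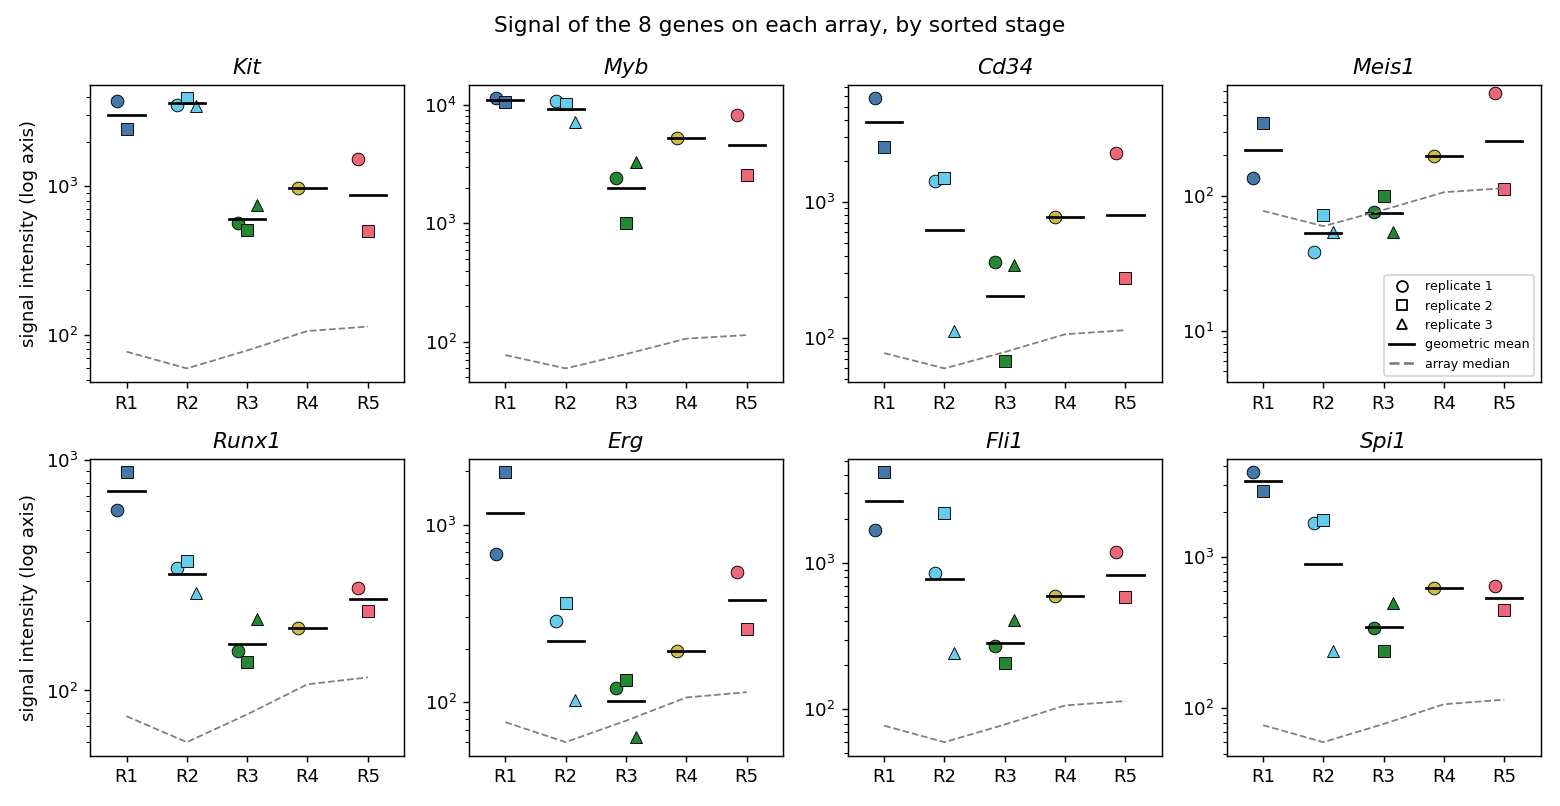
Signal intensity (log axis) of each of the 8 genes on each array, by sorted stage, with symbols for replicates, a bar for the geometric mean of the stage and a dashed line for the mean of the arrays' median signals. Kit is above 2400 on all 5 arrays of R1 and R2 and at or below 1527 on the later 6, and replicate 1 of R5 lies above replicate 2 in every panel.

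Kit, the stem cell factor receptor, was high in R1 and R2 and fell between R2 and R3. Its R1 arrays read 3742 and 2443, its R2 arrays 3523, 3904 and 3494, and its R3 arrays 570, 505.1 and 748.6. The R4 array read 969.8, and those of R5 read 1527 and 499.2. All 5 arrays of R1 and R2 lay above all 6 arrays of the later stages. From R2 to R3 the change was -2.60 ± 0.39 (SE), a 6.06-fold fall, with limma adjusted p = 0.00229. Only 0.9% of tested genes had a lower change in this comparison. From R1 to R2 the arrays overlapped and the change was 0.27 ± 0.44 (adjusted p = 0.859). R5 lay 3.46-fold below R1, at -1.79 ± 0.48 (adjusted p = 0.0303), while R5 against R3 gave 0.54 ± 0.44 (adjusted p = 0.491).

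The fall of Kit between R2 and R3 passed the test without each array of R1, R2, R3 and R5 in turn (10 fits), with adjusted p from 0.000351 to 0.0141. The call of R5 against R1 was lost without replicate 1 of R1 (adjusted p = 0.166), replicate 2 of R1 (0.0639) or replicate 2 of R5 (0.188), with only the compared stages in the fit (0.129) and without the intensity trend (0.0509). The second probe set of Kit, 1415900_a_at, gave -2.61 between R2 and R3 (adjusted p = 0.00172 over 23993 probe sets), beside -2.60 for the one used, where 17.5% of probe sets passed. The authors' deposited table gives a log2 difference of -2.60 with p = 0.033 for R3 against R2.

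Kit is encoded on chromosome 5 at chr5:75574987-75656722 of the mouse assembly GRCm38.p6, the build of the RefSeq table used for positions. The sequences of this report are RefSeq promoter windows, from 250 bases before to 50 bases after an annotated start, written 5′ to 3′ on the gene's strand. They are shown for Kit, Myb and Runx1, the members whose changes passed the test. Capitals mark GGAA or its reverse complement TTCC, the core of ETS sites, in view of the 3 ETS factors among the members. The Kit window lies at chr5:75574737-75575036 on the plus strand:
Kit: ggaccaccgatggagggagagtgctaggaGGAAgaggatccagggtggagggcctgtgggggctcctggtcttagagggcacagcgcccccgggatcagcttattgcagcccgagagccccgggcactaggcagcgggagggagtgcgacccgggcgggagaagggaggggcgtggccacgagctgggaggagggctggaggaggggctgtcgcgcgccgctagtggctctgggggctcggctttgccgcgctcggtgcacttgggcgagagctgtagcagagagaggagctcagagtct
It is 69.0% G and C, above the upper quartile of 61.7% of 32851 mouse promoter windows, and holds 20 CpG pairs and 1 GGAA core. A further Kit window, at chr5:75574741-75575040 with 21 CpG pairs, overlaps it almost wholly and is not shown.

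Myb, which keeps fetal liver progenitors cycling, was likewise high in R1 and R2 and lower from R3. The R1 arrays read 11356 and 10496 and the R2 arrays 10782, 10178 and 7180. R3 had 2402, 1016 and 3280, R4 had 5222, and R5 had 8242 and 2587. All R3 arrays lay below all R1 and R2 arrays, and at this probe set the R5 arrays straddled the R2 minimum. The step from R2 to R3 was -2.21 ± 0.49 (adjusted p = 0.013), a 4.62-fold fall, and 2.3% of tested genes had a lower change.

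The preceding step of Myb was -0.24 ± 0.54 (adjusted p = 0.894), R5 against R3 was 1.21 ± 0.54 (adjusted p = 0.259), and R5 against R1 was -1.24 ± 0.59 (adjusted p = 0.146). Without replicate 1 of R2 the R3 change was -2.10 (adjusted p = 0.0565). It was -1.72 without replicate 2 of R3 (adjusted p = 0.0502), so the call was lost in both fits. Of all genes, 840 and 845 passed in these fits, against 2716 with all arrays, so the loss was not particular to Myb. When replicate 1 of R5 was left out, the R5 against R1 change was -2.08 (adjusted p = 0.0246), and with replicate 2 left out it was -0.41 (adjusted p = 0.713). The other Myb probe sets gave larger differences from R2 to R3, of -3.21 for 1422734_a_at (adjusted p = 0.0021) and -2.78 for 1450194_a_at (adjusted p = 0.00482). Between R1 and R5 they gave -2.48 (adjusted p = 0.016) and -2.38 (adjusted p = 0.0216). Unlike at the probe set used, their R5 arrays lay below every R2 array. For 1422734_a_at R5 read 983 and 376 against at least 2140 in R2, and for 1450194_a_at 3120 and 1090 against at least 3930. On the R4 array they read 649 and 1950, against 5222 for the probe set used, 1421317_x_at. Whether its probes also read other sequences was not tested. The authors' deposited table gives p = 0.0779 for R3 against R2 at the Myb probe set used here.

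Myb lies at chr10:21124930-21160984 of GRCm38.p6 on the minus strand, with its promoter window at chr10:21160935-21161234:
Myb: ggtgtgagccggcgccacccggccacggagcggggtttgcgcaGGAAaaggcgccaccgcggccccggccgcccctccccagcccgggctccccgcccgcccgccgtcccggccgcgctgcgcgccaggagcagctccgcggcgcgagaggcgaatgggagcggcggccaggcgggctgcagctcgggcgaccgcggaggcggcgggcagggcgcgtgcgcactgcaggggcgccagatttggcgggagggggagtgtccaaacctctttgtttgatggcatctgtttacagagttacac
The Myb window is 75.0% G and C with 40 CpG pairs, where the median of all windows is 52.7% and 7, and it also holds 1 GGAA core.

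**Figure D2:**
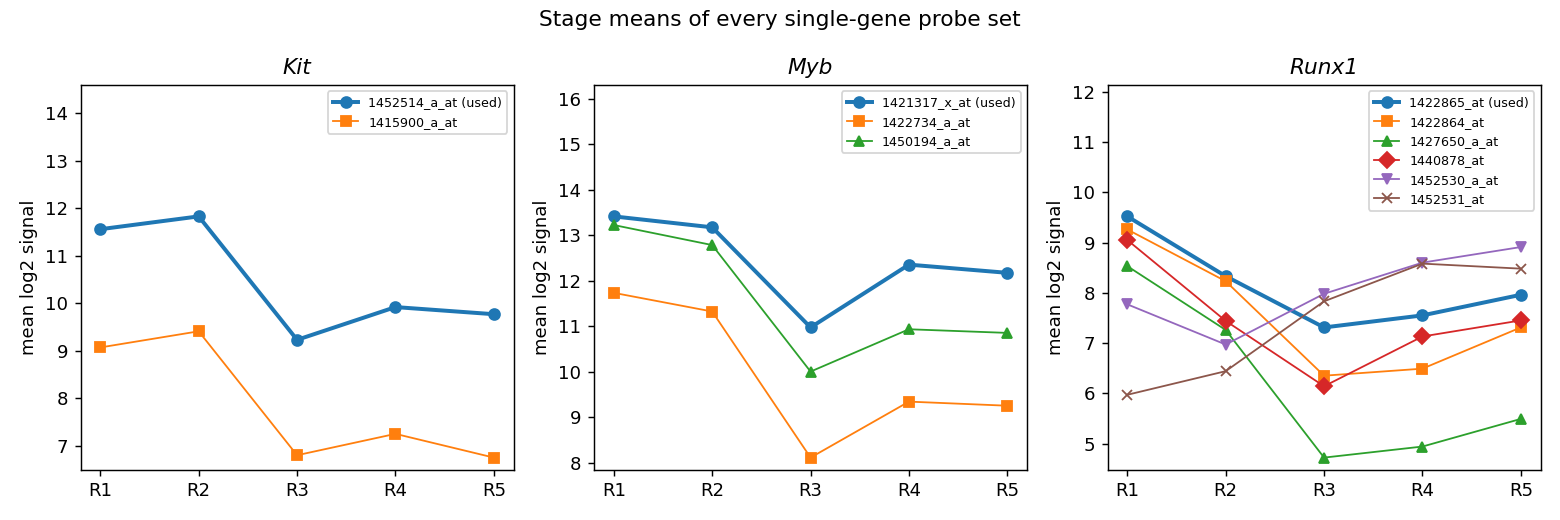
Mean log2 signal per stage of every single-gene probe set of Kit, Myb and Runx1, with the probe set used drawn thick. Both Kit and all 3 Myb probe sets drop between R2 and R3, while 4 of the 6 Runx1 probe sets are lower in R3 than in R1 and the remaining pair, 1452530_a_at and 1452531_at, are higher in R3 than in R1.

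Cd34, a sialomucin on the surface of stem and progenitor cells and of endothelium, had the widest spread over arrays of the 8, with an SD of 2.00 on the log2 scale. The R1 signals were 5777 and 2556, those of R2 were 1437, 1506 and 113.2, and those of R3 were 360.9, 67.89 and 346. R4 read 775.4, and the R5 arrays read 2308 and 275.5. R1 lay above R2 without overlap, and R2 and R3 overlapped through replicate 3 of R2. None of its changes passed the test. R2 against R1 gave -2.62 ± 1.22 (adjusted p = 0.392), R3 against R2 gave -1.62 ± 1.09 (0.277) and R5 against R1 gave -2.27 ± 1.33 (0.218). Without replicate 3 of R2 the first of these was -1.39 (adjusted p = 0.873) and the second -2.85 (adjusted p = 0.0502). R5 against R1 was -3.80 (adjusted p = 0.0708) without replicate 1 of R5 and -0.74 (adjusted p = 0.801) without replicate 2. Cd34, at chr1:194938821-194961292, has 1 single-gene probe set.

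Meis1, the Hox and Pbx partner, was dim and was at or above the array median on 7 of 11 arrays. It read 136.2 and 349 in R1, 38.26, 72.21 and 53.74 in R2, and 76.3, 99.16 and 54.35 in R3. The R4 array read 197.2, and the R5 arrays 579.9 and 113. The arrays of R2 lay below both of R1, and the arrays of R5 lay above all of R3. Neither difference passed the test. R2 against R1 was -2.04 ± 0.71 (adjusted p = 0.255), and R5 against R3 was 1.78 ± 0.71 (adjusted p = 0.223). That difference was 0.60 without replicate 1 of R5. The probe set 1450992_a_at differed from the one used between R2 and R3, at -2.15 (adjusted p = 0.102) against 0.49, and between R1 and R5, at -1.70 against 0.23. Meis1 lies at chr11:18880428-19019651.

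Runx1, the DNA-binding subunit of core-binding factor, had lower stage means in R2 and R3 than in R1, at 9.52 ± 0.38 (SD, n = 2), 8.33 ± 0.24 (n = 3) and 7.31 ± 0.32 (n = 3) log2 signal. The arrays read 610.4 and 888.2 in R1, 341.5, 363.7 and 265.7 in R2, and 147.8, 132.8 and 204.1 in R3. R4 had 187.1, and R5 had 279.5 and 222.3. Neither R1 and R2 nor R2 and R3 overlapped. The single steps did not pass the test, at -1.20 ± 0.37 (adjusted p = 0.2) from R1 to R2 and -1.01 ± 0.33 (adjusted p = 0.0507) from R2 to R3. R5 lay below R1 by a called change of -1.56 ± 0.40 (adjusted p = 0.027), a 2.95-fold fall. This call was lost without replicate 1 of R1 (adjusted p = 0.0649), replicate 2 of R1 (0.132) or replicate 2 of R5 (0.137). It was also lost with only the compared stages in the fit (adjusted p = 0.112) and with the mean over all Runx1 probe sets (-0.75, adjusted p = 0.234).

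The 6 probe sets of Runx1 did not move one way. Between R2 and R3, 1422864_at gave -1.89 (adjusted p = 0.0101) and 1427650_a_at gave -2.54 (adjusted p = 0.0166), while 1440878_at gave -1.31 (0.155). In the same step 1452530_a_at gave 1.01 (adjusted p = 0.123) and 1452531_at gave 1.39 (adjusted p = 0.0555). Between R1 and R5, where 15.7% of probe sets passed, the last of these rose by 2.51 (adjusted p = 0.0142), while 1422864_at gave -1.95 (adjusted p = 0.0203) and 1427650_a_at gave -3.03 (adjusted p = 0.0191). The rising 1452531_at was dim in R1, with signals of 36.8 and 108, and read 335 and 382 in R5. Which exons the probe sets target was not analysed here.

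Runx1 has a distal and a proximal promoter that give proteins with different first residues. The gene lies at chr16:92601466-92826074 on the minus strand of GRCm38.p6, and the table holds a window for each of 2 annotated starts, the distal at chr16:92826025-92826324 and the other at chr16:92697280-92697579:
Runx1 distal: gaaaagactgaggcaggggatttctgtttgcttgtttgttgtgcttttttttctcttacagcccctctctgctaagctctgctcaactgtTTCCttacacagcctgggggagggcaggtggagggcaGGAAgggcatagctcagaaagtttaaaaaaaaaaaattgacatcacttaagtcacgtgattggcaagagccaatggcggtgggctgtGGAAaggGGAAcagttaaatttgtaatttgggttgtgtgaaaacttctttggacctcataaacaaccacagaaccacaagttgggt
Runx1 proximal: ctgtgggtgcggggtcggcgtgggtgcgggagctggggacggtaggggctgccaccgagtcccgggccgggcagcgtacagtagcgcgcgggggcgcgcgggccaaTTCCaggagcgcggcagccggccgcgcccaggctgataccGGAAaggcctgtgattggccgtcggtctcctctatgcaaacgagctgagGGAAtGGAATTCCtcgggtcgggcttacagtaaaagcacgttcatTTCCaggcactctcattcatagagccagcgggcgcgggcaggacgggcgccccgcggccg
The distal window is 45.0% G and C with 2 CpG pairs, and the proximal window is 69.0% with 35. GGAA cores numbered 4 in the distal and 6 in the proximal window, against a median of 3 over all windows. The distal window holds 2 matches to TGTGGT, the letters of a Runx site, and the proximal none, where 16.8% of all windows hold it. All motifs were searched on both strands, where matches of different motifs may share bases, and a match is not evidence of binding.

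Windows were found for 6 of the 8 genes, 10 windows in all, and Fli1 and Spi1 had no entry. Both overlapping Kit windows are counted among the 10, so a match they share is counted for each. All 10 hold a GGAA core, as do 96.0% of mouse windows. The GATA letters AGATAA were in 1 of the 10 (11.2% of all windows), TGTGGT in 2, the Myb letters AACNG in 7 (80.3%), the E-box CANNTG in 6 (72.3%) and TATAAA in 1 (13.6%).

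Among the ETS factors, Erg, needed for definitive stem cells, was highest in R1. It read 681.2 and 1972 in R1, 288.1, 360.4 and 103.6 in R2, and 120.6, 134 and 63.94 in R3. R4 had 195, and R5 had 540.5 and 259.1. R1 lay above R2, and R5 above R3, without overlap. None of these differences passed, at -2.39 ± 0.65 (adjusted p = 0.158) from R1 to R2, -1.13 ± 0.58 (0.168) from R2 to R3 and 1.89 ± 0.65 (0.18) from R3 to R5. Its second probe set, 1425370_a_at, was dim, at or above the array median on 2 arrays. Erg lies at chr16:95359169-95586600.

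Fli1, a close relative of Erg that also acts in megakaryocytes and endothelium, read 1694 and 4197 in R1, and 862.7, 2207 and 244.3 in R2. In R3 it read 271.1, 206.2 and 405.9, in R4 596.2, and in R5 1185 and 583.4. R1 and R2 overlapped through replicate 2 of R2, and R2 and R3 overlapped through replicate 3 of R2. The step from R2 to R3 was -1.45 ± 0.70 (adjusted p = 0.142), and without replicate 3 of R2 it was -2.29 ± 0.56 (adjusted p = 0.0218). Its second probe set, 1422024_at, gave -1.98 (adjusted p = 0.0669) for the same step. Fli1 lies at chr9:32422204-32543432.

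Spi1, encoding PU.1, read 3666 and 2753 in R1, 1689, 1779 and 240.7 in R2, and 338.8, 240.3 and 496.4 in R3. R4 had 622.7, and R5 had 649.3 and 449.7. R2 lay below R1 without overlap, and its replicate 3 was far below the other R2 arrays and within the range of R3. The R2 to R3 step was -1.39 ± 0.66 (adjusted p = 0.14), and without replicate 3 of R2 it was -2.34 ± 0.38 (adjusted p = 0.00467). R5 against R1 was -2.56 ± 0.81 (adjusted p = 0.0533), and without the same array it was -2.56 ± 0.42 (adjusted p = 0.00359), since the fit pools the spread of all stages. From R3 to R5 it gave 0.65 ± 0.74 (adjusted p = 0.623). Spi1 lies at chr2:91082374-91115759.

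Taking the comparisons by step, 0 of the 8 genes passed limma's adjusted test between R1 and R2, where 61 genes did, or 0.466% of those tested. At an unadjusted p under 0.05 there were 5 of the 8 (Meis1, Runx1, Erg, Fli1 and Spi1), against 13.4% of all genes. The arrays of R2 lay wholly below those of R1 for Cd34, Meis1, Runx1, Erg and Spi1, as for 22.1% of all genes. The median change of the 8 was -1.80, beside -0.05 over all genes, and it was -1.01 without replicate 3 of R2. Kit and Myb were the members nearest to 0.

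Between R2 and R3, 2 of the 8 fell, Kit and Myb, and 0 rose. Of all genes 20.7% passed in either direction and 10.1% fell. At an unadjusted p under 0.05 there were 3 of the 8, against 40.1% of all genes. The median change was -1.42, beside -0.14 over all genes, with 7 members negative and Meis1 positive. R3 lay wholly below R2 for Kit, Myb and Runx1, as for 27.4% of all genes. Without replicate 3 of R2, 4 of the 8 passed (Kit, Myb, Fli1 and Spi1), with a median of -2.31 for the 8, while 21.4% of all genes passed in that fit.

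The direct test of whether the second step differed from the first gave -2.87 ± 0.71 for Kit (adjusted p = 0.0933) and -1.97 ± 0.87 for Myb (adjusted p = 0.276). Of the other members Meis1 had the largest value, 2.53 ± 1.15 (adjusted p = 0.282). None of the 8 passed, while 0.634% of all genes did and 17.7% had an unadjusted p under 0.05, as did 3 of the 8. For Kit the call depended on the setting. It passed without replicate 1 of R5 (adjusted p = 0.0231), without replicate 2 of R5 (0.0247), with only the compared stages (0.0259), with the mean over probe sets (0.0491) and with the replicate number as a block (0.0453). Members were not tested against each other.

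From R3 to R5 all 8 changes were positive at the probe sets used, from 0.54 to 1.97, and 0 passed the limma test. Their median was 1.38, beside 0.20 over all genes. Only 1 gene of all tested passed, or 0.00763%, and 19% had an unadjusted p under 0.05, as did 3 of the 8. R5 lay wholly above R3 for Meis1, Runx1, Erg and Fli1, as for 22.8% of all genes. The median was 0.46, and Kit gave -0.26, without replicate 1 of R5. With all arrays the second probe set of Kit, 1415900_a_at, gave -0.05. The single R4 array lay above every R3 array for 7 of the 8, all but Runx1, against 36.3% of all genes.

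Between R1 and R5, Kit and Runx1 fell and 0 rose, where 16.8% of all genes passed and 6.57% fell. At an unadjusted p under 0.05 there were 4 of the 8, against 38.6% of all genes. The median was -1.66, beside -0.31 over all genes. R5 lay wholly below R1 for 7 of the 8, all but Meis1, as for 35.5% of all genes.

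**Figure D3:**
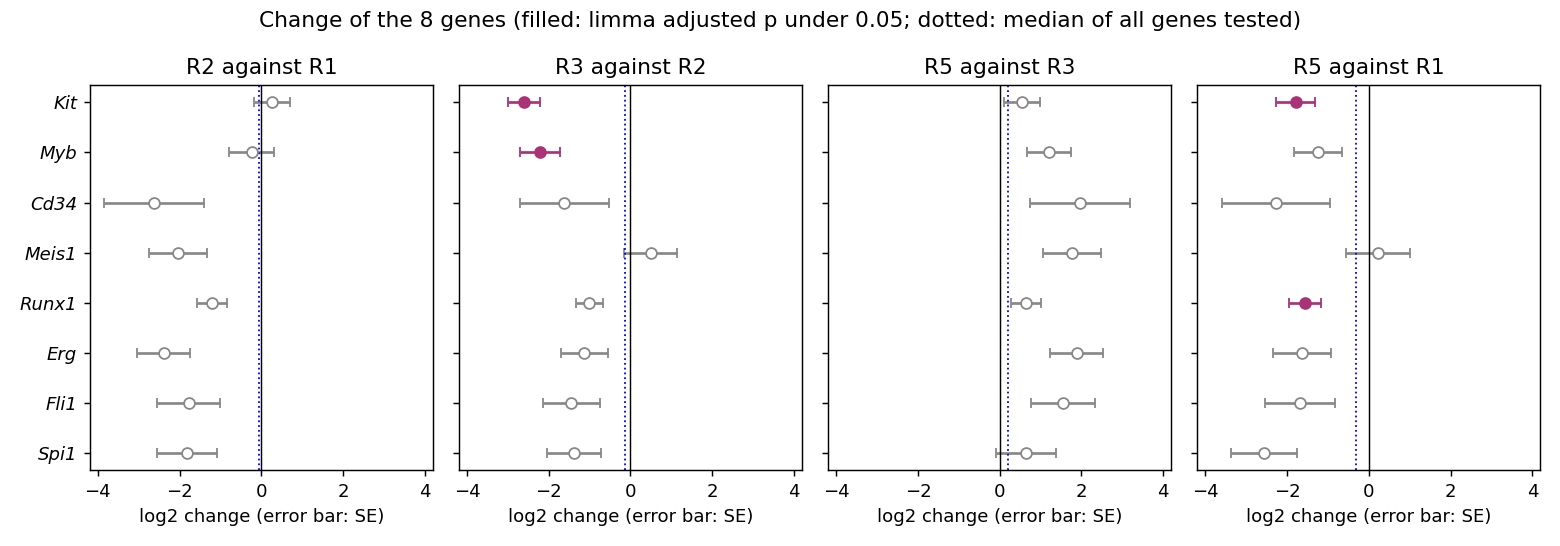
Log2 change with its SE of each of the 8 genes in 4 comparisons from 1 limma fit, filled where the adjusted p was under 0.05 and open otherwise. The filled points are Kit and Myb in R3 against R2 and Kit and Runx1 in R5 against R1, and every point of R5 against R3 is above 0.

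Every list of markers of cells other than erythroid had, like the 8 genes, a median change below 0 from R1 to R2 and above 0 from R3 to R5. Single genes differed from these medians, as Kit did from R1 to R2, at 0.27. The list named mast cell here also holds the basophil gene Mcpt8, so it does not mark mast cells alone. Of its 9 genes the summed signal was 10460 to 11671 on the R1 arrays, and in R2 it was 737 to 4519. R3 had 765 to 1529 and R4 had 3352, while R5 had 1387 to 7195, the higher value in replicate 1. The brightest of these markers in R1 were Mcpt8 (3090 to 4520), Hdc (2640 to 4500) and Cpa3 (1880 to 2760). Mcpt4 and Tpsab1, at no more than 12.8 and 11.8, lay below the array median on both R1 arrays. Tpsb2, at 13 to 160, lay below it on 1 of them. Of 12 granulocyte markers the summed signal was 232359 to 245770 in R1, and R2 had 81824 to 213689. R3 had 78668 to 215203 and R5 262609 to 283994. Their mean log2 signal was lowest in replicate 3 of R2, at 10.59. This list split, as Mpo, Elane, Prtn3 and Ctsg had higher means in R2 than in R1 and lower means in R5 than in R3. For Elane the log2 means were 12.69 in R1, 13.49 in R2, 11.8 in R3 and 10 in R5. The rest of the list went the other way in both steps. The 10 endothelial markers had a mean log2 signal of 7.30 and 7.55 on the R1 arrays and 5.35 to 6.11 on those of R2. It was 5.97 to 6.73 in R3 and 7.17 in R4, and the R5 arrays had 8.07 and 6.73.

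The 11 megakaryocyte markers measured had means of 7.58 and 8.21 on the R1 arrays, and R2 had 6.45 to 7.69, R3 7.17 to 7.89, and R5 8.90 and 7.49. The 11 lymphocyte markers measured had means of 8.24 and 10.80 on the R1 arrays, and R2 had 6.17 to 8.18, R3 6.06 to 7.26, and R5 8.43 and 8.88. Over the tested markers, the median changes from R1 to R2 were -2.44 for mast cell, -2.02 for lymphocyte, -1.92 for endothelial and -1.02 for granulocyte markers, beside -1.80 for the 8 genes. From R3 to R5 they were 1.40, 2.22, 0.92 and 1.56, beside 1.38. From R2 to R3, where Kit and Myb fell, the medians were -0.28 for mast cell, -1.39 for lymphocyte, 1.34 for endothelial and -0.21 for granulocyte markers, beside -1.42 for the 8 genes. Megakaryocyte and macrophage markers had 0.13 and 1.16 in that step, so the endothelial and macrophage lists went the opposite way. In these lists 2 of 10 and 2 of 11 tested genes rose, where 10.6% of all genes did. In R1 to R2 these lists of megakaryocytes and macrophages had -0.72 and -0.33, and in R3 to R5 1.03 and 0.23. Of 12 macrophage markers the mean was 6.87 and 8.21 in R1 and 6.66 to 7.47 in R2. Of 9 hepatocyte markers measured, all 9 rose from R2 to R3, where 10.6% of all genes rose. Their means were 7.03 to 8.51 in R2 and 11.14 to 12.17 in R3, with a median change of 3.93. From R1 to R2 their median change was -1.25, and from R3 to R5 it was 0.94. Between 0 and 8 genes of a list lay below the array median, the most in endothelial markers on an R2 array. The part of these cells in the results was not tested.

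Of 3 controls for shortened target, pyruvate carboxylase differed most between the stages, and Gapdh set R5 apart by less. The log2 difference between the 3′ and 5′ probe sets of pyruvate carboxylase was 0.20 and 0.38 on the R1 arrays, 0.75 to 1.84 on those of R2 and 2.45 to 3.29 on those of R3. The R4 array had 2.72, and R5 had 4.62 in replicate 1 and 2.27 in replicate 2. For beta-actin it lay between 0.21 and 0.83 and for Gapdh between -0.46 and 0.23 over all arrays. The part of these differences in the members' changes was not tested.

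**Figure D4:**
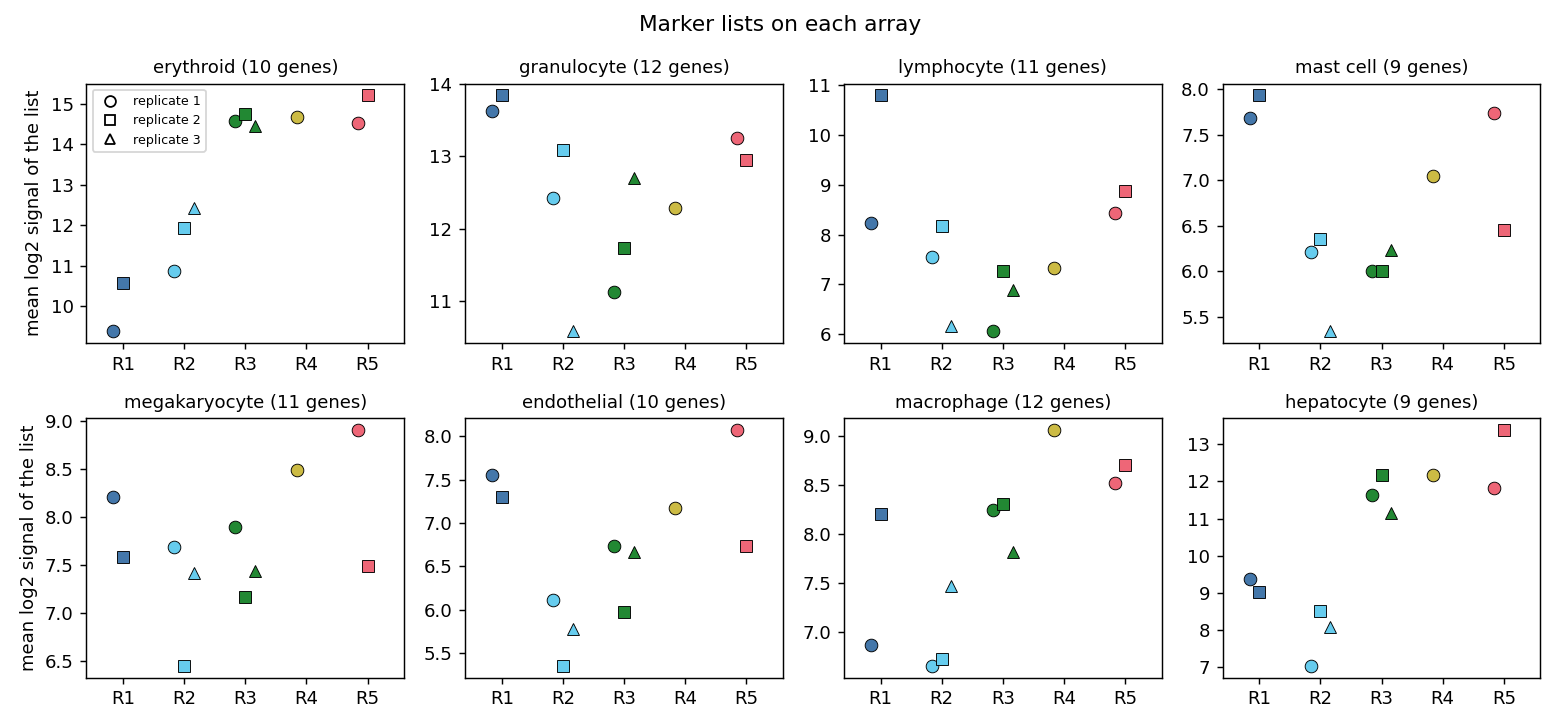
Mean log2 signal per array of the marker lists of 8 cell types, by stage. Erythroid markers go from 9.38 and 10.57 in R1 to 14.52 and 15.20 in R5, and mast cell, lymphocyte and endothelial markers are lower in R2 than in R1.

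Of 23 tested genes of Kit signalling, 6 fell and 2 rose between R2 and R3, where 10.1% of all genes fell and 10.6% rose, and the list's median was -0.74. The largest falls were those of Ptpn6, the phosphatase SHP-1 that dampens receptor signals, at -2.17 ± 0.48 (adjusted p = 0.0129), and Pik3cd, a catalytic subunit of PI3-kinase, at -1.90 ± 0.59 (0.0432). Sos1, the exchange factor that loads Ras, fell by 1.79 on the log2 scale (adjusted p = 0.00922). Dok1, an adaptor that restrains Ras signalling, rose by 1.16 ± 0.27 (adjusted p = 0.0177), and Jak2, the kinase of the erythropoietin receptor, by 0.92 ± 0.25 (0.0281). The call of Sos1 held in all 10 fits that left out an array of R1, R2, R3 or R5. The calls of Ptpn6 and Dok1 were lost without replicate 2 of R3 or either of the first pair of R2 arrays (replicates 1 and 2). That of Jak2 was lost without any R3 array or replicate 1 or 2 of R2, and that of Pik3cd without replicate 1 or 2 of R1, R2 or R3. Without replicate 1 of R2, replicate 2 of R2 or replicate 2 of R3, 840, 1095 and 845 of all genes passed, against 2716 with all arrays. Losses in those fits, here and in the lists below, were thus not particular to the genes named.

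Between R1 and R5 the Kit signalling list had 2 falls and 1 rise, beside 6.57% and 10.2% of all genes. Ptpn6 fell by 2.70 and Akt1, a kinase that acts after PI3-kinase, fell by 2.06 on the log2 scale (adjusted p = 0.0127 and 0.0109), although 1 of 2 probe sets of Ptpn6 and 1 of 3 of Akt1 had the opposite sign. Dok1 rose by 1.66 ± 0.34 (adjusted p = 0.00942). All 3 calls were lost without replicate 1 of R1 or replicate 2 of R5, and that of Ptpn6 also without replicate 2 of R1. The list's median in this comparison was -1.03, and -1.46 without replicate 1 of R5, which leaves 1 R5 array. The ligand Kitl, named outside the rule for named genes, gave -0.78 ± 0.77 from R2 to R3 (adjusted p = 0.463).

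The partners of the transcription factors split. Of 17 tested, 7 rose and 3 fell between R2 and R3, where 10.6% of all genes rose and 10.1% fell, and the list's median was 0.51. Runx1t1, also called ETO and known from its fusion with RUNX1 in human leukaemia, rose by 5.91 ± 0.79 (adjusted p = 0.00129). Its signal was 15.7 and 193 on the R1 arrays and 40.9 to 111 on those of R2, against 2870 to 5750 in R3 and 5460 to 15500 in R5, and none of its 5 probe sets had the opposite sign. Tal1, the erythroid and stem cell basic helix-loop-helix factor, rose by 2.27 ± 0.31 (adjusted p = 0.00149), from 4420 to 6760 in R2 to 22600 to 28600 in R3. Gata1, the main erythroid factor, rose by 1.61 ± 0.32 (adjusted p = 0.00842). These 3 calls held in the same 10 fits.

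Among those partners that fell from R2 to R3, Tcf3, which encodes the E proteins that pair with Tal1, gave -1.94 ± 0.29 (adjusted p = 0.00228). Pbx2, a Meis1 partner, gave -1.64 ± 0.33 (adjusted p = 0.00944), and Ldb1, which bridges Lmo2 complexes, gave -1.27 ± 0.32 (0.0222). The calls of Tcf3 and Pbx2 held in these 10 fits as well, and that of Ldb1 was lost without replicate 1 or 2 of R2 or replicate 2 or 3 of R3. Between R1 and R5 the list again had 7 rises and 3 falls, where 10.2% of all genes rose and 6.57% fell. The rises were led by Runx1t1 at 7.39 ± 0.97 (adjusted p = 0.000705), Tal1 at 3.59 ± 0.38 (0.000236) and Gata1 at 2.83 ± 0.39 (0.000961). Tcf3 fell by 1.68, Pbx2 by 1.61 and Ldb1 by 1.46 on the log2 scale (adjusted p = 0.0114, 0.0254 and 0.0302). That of Tcf3 was lost without replicate 2 of R1, that of Ldb1 without replicate 1 of R1 or 2 of R5, and that of Pbx2 without any of these arrays. Gata2 and Lmo2, named outside the rule, gave -1.89 ± 0.50 (adjusted p = 0.155) from R1 to R2 and 1.44 ± 0.34 (adjusted p = 0.0176) from R2 to R3, respectively.

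Of 20 other stem and progenitor genes, 6 fell and 0 rose between R2 and R3, where 10.1% of all genes fell and 10.6% rose. The list's median was -1.15. Gfi1, a transcriptional repressor that acts in stem cells and granulocytes, gave -2.79 ± 0.76 (adjusted p = 0.0292). Cd27, a receptor on progenitors and lymphocytes, gave -2.69 ± 0.75 (adjusted p = 0.0319), a change of uncertain size, since it was dim in both stages, at 29.4 to 70.8 in R2 and 3.94 to 15.6 in R3. Myc, which drives growth, gave -2.24 ± 0.48 (adjusted p = 0.012). The call of Myc was lost without replicate 2 of R3 (adjusted p = 0.053), that of Gfi1 when replicate 1 or 2 of either stage was left out, and that of Cd27 without replicate 2 or 3 of R3, replicate 1 or 2 of R2, or either R1 array. From R1 to R5 only Gfi1 passed, at -3.49 ± 0.93 (adjusted p = 0.03), where 16.8% of all genes passed. Its call was lost without either R1 array or replicate 2 of R5. The median of the 20 from R1 to R5 was -1.1, and -2.05 without replicate 1 of R5, which leaves 1 R5 array.

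In the families of the members, 5 of 25 fell and 2 rose between R2 and R3, where 10.1% of all genes fell and 10.6% rose. Podxl, a sialomucin related to Cd34, gave -2.34 ± 0.63 (adjusted p = 0.0274), Runx3 gave -2.06 ± 0.52 (0.0225) and the ETS repressor Etv3 gave -2.0 ± 0.52 (0.0238), with 1 of 4 Etv3 probe sets of opposite sign. Emcn, an endothelial sialomucin, rose by 2.65 ± 0.69 (adjusted p = 0.0254), although it was below the array median on all 3 R2 arrays, at 4.87 to 30.6, so that the size of this change is uncertain. Mybl2, the cell cycle relative of Myb, rose by 0.80 ± 0.25 (adjusted p = 0.0471). All 5 calls were lost without replicate 2 of R3, all but that of Emcn without replicate 1 of R2, and all but that of Podxl without replicate 2 of R2. That of Emcn was also lost without replicate 1 of R3, and that of Mybl2 without either R1 array or any of R2 or R3. From R1 to R5, 1 of the 25 passed, where 16.8% of all genes did. It was the ETS factor Gabpa at -1.42 ± 0.41 (adjusted p = 0.0388), lost without replicate 1 of R3, replicate 2 of R2 or R5, or either R1 array. Without replicate 1 of R5, which leaves 1 R5 array, the list's median from R1 to R5 was -1.4, beside -1.05 with all arrays.

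Of all genes 20.7% passed limma's test from R2 to R3 and 16.8% from R1 to R5. Of 19 tested myeloid targets of Spi1, 0 passed it in any of these comparisons. Their medians were -1.86 from R1 to R2, -1.0 from R2 to R3, 1.19 from R3 to R5 and -1.71 from R1 to R5, and the first of these became -0.97 and the next -1.87 without replicate 3 of R2. Without replicate 3 of R2, 13 of the 19 fell from R2 to R3 and 10 fell from R1 to R5, while 21.4% and 17.8% of all genes passed in either direction. That array also had the lowest granulocyte markers of R2. Leaving out an array picked for low signal raises the R2 mean of genes low on it, so these counts support nothing.

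Likeness to each member was measured over the 11 arrays as the root mean square difference of log2 signals, each centred on its gene's mean, so that small values mean like profiles. For Kit the nearest of all tested genes outside the 8 were Fubp3 at 0.24, Gnptab at 0.28 and Cdca7 at 0.28. For Myb they were Nt5c3b at 0.17, Ube2e1 at 0.21 and Ehmt2 at 0.21. Nearest to Runx1 were Ubl3 at 0.16, Tle3 at 0.17 and Rab33b at 0.18, and nearest to Fli1 were Lcp2 at 0.21, Map3k5 at 0.26 and Lpgat1 at 0.27. Spi1 was nearest to Cebpb, Rhob and Irf8, each at 0.27, of which Cebpb and Irf8 are in the list of its myeloid targets.

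The nearest genes of Erg, Cd34 and Meis1 were more distant. The measure is not scaled to a gene's own spread, so a wider spread can give larger distances. Over the arrays the SD was 0.83 for Runx1, 1.20 for Meis1, 1.41 for Erg and 2.00 for Cd34. Erg was nearest to Itih5 at 0.34, Ablim1 at 0.37 and Arhgap25 at 0.38. Cd34 was nearest to Psmb8 at 0.38, Afap1l1 at 0.39 and Bex6 at 0.46, and Meis1 to Fam135a at 0.39, Csgalnact1 at 0.49 and Ccdc80 at 0.50. Among the 8 themselves the nearest pair was Kit and Myb at 0.51, followed by Fli1 and Spi1 at 0.58 and Erg and Fli1 at 0.60. The most distant were Cd34 and Meis1 at 1.73 and Kit and Meis1 at 1.70. All these distances share the same arrays, including replicate 3 of R2 and replicate 1 of R5, and are given as descriptions.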

How the data were processed

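The authors deposited linear signal intensities, 1 for each probe set on an array, and a table of log2 stage means, log2 differences from R2 and p-values. MAS5 and limma are named in the submitters' processing notes, and a trimmed mean of 500 on every array is the form of scaling that MAS5 applies. The labels name Cy5 as the dye, and how that step relates to this 1-colour probe set array is not given in the sources used here. Deposited intensities were taken to log2 without further normalization. The authors' log2 means matched the means computed here within 0.005.

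Of 45101 probe sets, 64 were controls, 34945 had 1 gene in the platform annotation, 932 had several and 9160 had none, and only the first kind was named. Each gene was read from its probe set of highest mean, and tested where that lay at or above the array median on at least 2 arrays. One limma fit (version 3.58.1, R 4.3.3; lmFit, eBayes with intensity trend) held all 11 arrays with a mean per stage, 6 residual and 4.83 prior degrees of freedom. The R4 array is assumed to vary like the others, and precision is limited by the number of arrays. The fit was tested on simulated data.

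The members and lists were chosen with earlier results of these data known. All 8 members are named. From each pathway list the rule takes up to 3 called rises and 3 called falls for each of R2 and R5 against R1 and for R3 against R2, and for each member the 3 nearest profiles. Alternatives were other scalings (quantile, centring on the median), no trend, only the compared stages, no filter, an offset of 50, the mean over probe sets, a replicate block and leaving out each array of R1, R2, R3 and R5.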

Additional observations from a re-analysis of the deposited data

How the results depend on the processing

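The fall of Kit from R2 to R3 kept its call in every alternative run here. Over the 8 genes, 5 comparisons and all alternatives, 760 results were recomputed. Of these, 692 kept direction and side of the threshold, 12 lost a call, 33 gained one and 23 changed sign, the last all uncalled. These totals include the unplanned fit without replicate 3 of R2 and replicate 1 of R5 together, whose gained calls support nothing. Counts of genes called in R2 against R1, R3 against R2, R5 against R3, R5 against R1 and the difference of the first 2 steps were 61, 2716, 1, 2195 and 83. Leaving out 1 array of R1, R2, R3 or R5 gave 0 to 87, 840 to 3920, 0 to 633, 631 to 4340 and 0 to 181. The members called were then 0 to 0, 1 to 4, 0 to 0, 0 to 3 and 0 to 1.

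Centring each array on its median moved the median of all genes from -0.05 to 0.30 in R2 against R1, -0.14 to -0.55 in R3 against R2, 0.20 to -0.34 in R5 against R3, -0.31 to -0.89 in R5 against R1 and 0.01 to -0.75 in the step difference. The counts became 100, 588 in R5 against R3, 4520 in R5 against R1 and 9 in the step difference, with 6 members called in R5 against R1. The share of calls that were rises went from 51.1% to 21.7% in R3 against R2, from 60.8% to 20.6% in R5 against R1 and from 95.2% to 77.8% in the step difference. In R2 against R1 it was 75.4%, and 87.5% with quantile scaling, under which R5 against R3 had 14 calls. Without the intensity trend R2 against R1 and R5 against R3 had 0 calls in limma (1656 and 2386 at an unadjusted p under 0.05) and the step difference 48, with Runx1 the 1 member called in R5 against R1. With only the compared stages R2 against R1 and R5 against R3 had 0 (1953 and 2048 unadjusted), R5 against R1 700 and the step difference 156, with 1 member called in each of the last pair, Spi1 in R5 against R1 (adjusted p = 0.0313), where Kit and Runx1 lost their calls, and Kit in the step difference. Without the filter R5 against R3 had 0 (2918 unadjusted), with the offset 95, and with the mean over probe sets 7, where R2 against R1 had 36 and the step difference 1 member. The member gained in the step difference was Kit in each case, with adjusted p = 0.0259 with only the compared stages and 0.0491 with the mean over probe sets.

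Arrays of 1 number in different stages correlated in their deviations from stage means at r = -0.15 to 0.40 over 13 pairs, 10 of them over 0.1. Arrays of different number had -0.40 to 0.22 over 24 pairs, 4 of them over 0.1. R1 and R5 have 2 arrays each, whose deviations from the stage mean are equal and opposite. Values with these stages thus recur with the sign changed, so the pairs are not independent and both counts are partly fixed. Per the labels a set of replicates shared an extraction date, without saying what a set is. Since not every same-number pair was over 0.1 (replicates 3 of R2 and R3 had -0.15), the numbers were not taken to pair the arrays, although the correlations of the others are a hint that they may. With the replicate number as a replicate block the 5 counts were 0 (1704 unadjusted), 4197, 169, 3735 and 514. Under that block Runx1 passed in R3 against R2 (adjusted p = 0.0483), Spi1 in R5 against R1 (0.0397) and Kit in the step difference (-2.80, adjusted p = 0.0453), which made 1 member called there.

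Leaving out replicate 3 of R2 and replicate 1 of R5 together, chosen after seeing the data and partly from the members' own levels, gave 0, 4105, 468 and 4692 calls in the first 4 comparisons, with 7 members called in R3 against R2 and 7 in R5 against R1, so these counts support nothing.

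Changes of sign under centring were Myb in R2 against R1 (0.11), Meis1 in R5 against R1 (-0.35), and Runx1, Fli1 and Spi1 in the step difference (-0.57, -0.43 and -0.32). With the mean over probe sets Meis1 gave -0.42 in R3 against R2 and -0.30 in R5 against R1. Without replicate 1 of R1 Meis1 gave -0.45 in R5 against R1. Without replicate 2 of R1 Kit gave -0.04 in R2 against R1, and Runx1 and Fli1 gave -0.09 and -0.32 in the step difference. Without replicate 3 of R2 the step difference was -0.09 for Runx1, -1.34 for Fli1, -1.47 for Cd34 and -1.46 for Spi1, and without replicate 1 of R5 Kit gave -0.26 in R5 against R3 and Meis1 -0.95 in R5 against R1. The last 6 values were the same with both arrays left out. Over the fits that left out 1 array, Kit ranged from -0.04 to 0.57 in R2 against R1 and from -0.26 to 1.35 in R5 against R3, Meis1 from -0.95 to 1.41 in R5 against R1, and the step difference from -1.47 to 2.27 for Cd34, -0.09 to 0.46 for Runx1, -1.34 to 1.84 for Fli1 and -1.46 to 1.42 for Spi1. For results that changed, the cause was not tested.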
